A study of Mus musculus with 10 samples.

Results

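Endothelial cells line blood vessels, and 33 genes that mark these cells or the capillaries of the heart were followed in hearts of mice that overexpress SPOP. The members were taken by gene symbol from the deposited table, where 33 of 33 names were found among 24888 genes. The rule uses no measured value, but the members were chosen with earlier results of these data known. They comprise 11 genes of cell junctions and the cell surface, 3 of secreted and matrix proteins, 6 of receptors and signalling enzymes, 8 of transcription factors and 5 enriched in capillaries. All 33 were among the 14212 genes with a value high enough to be tested.

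Poly(A) RNA was sequenced from mouse heart tissue in 10 libraries, which the labels call repeats without stating that each is a separate animal. In the 5 SPOP_CKI libraries, SPOP, which recruits substrates to a ubiquitin ligase built on cullin-3, was overexpressed through Cre recombinase under the αMHC promoter, which is active in cardiomyocytes. The 5 Cre_control libraries are titled WT but have the genotype Myh6Cre, so that the Cre transgene is common to both groups. All animals are labelled male, were 8 to 10 weeks old and were under sham conditions, and the strain is not stated in the sources used here. Values are reads per gene divided by the authors' size factor of each library, called scaled reads below, with the mean and SD taken over the 5 libraries of a group. The tissue carried the defining genes of heart muscle: all 10 cardiomyocyte markers were tested, at a summed level of 379760 to 811394 scaled reads per library. In whole tissue, fewer cells of a type and less RNA per cell cannot be told apart.

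In the heart, a dense net of capillaries runs along the muscle fibres, and its endothelium passes fatty acids, gases and bicarbonate between blood and cardiomyocytes. Endothelial cells are held together by VE-cadherin and claudin-5, and their identity is kept by ETS factors such as ERG and FLI1, by the SOX factors SOX7, SOX17 and SOX18, and by KLF2 and KLF4, which respond to blood flow. TCF15 and MEOX2 act as partners in heart capillaries, where they drive genes of fatty acid uptake.

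RefSeq promoter windows (GRCm38.p6, 250 bases before to 50 after a start site) were matched for 15 of the 33 members. Those of Car4, the member with the largest decrease, of Robo4, a surface receptor gene that also fell, and of Calcrl, the single member that rose, are printed here because they let members of opposite direction be set side by side. The capitals mark the letters GGAAG, or CTTCC where the motif lies on the other strand, a core read by ETS factors.
Car4 (chr11:84957504-84957803, plus strand): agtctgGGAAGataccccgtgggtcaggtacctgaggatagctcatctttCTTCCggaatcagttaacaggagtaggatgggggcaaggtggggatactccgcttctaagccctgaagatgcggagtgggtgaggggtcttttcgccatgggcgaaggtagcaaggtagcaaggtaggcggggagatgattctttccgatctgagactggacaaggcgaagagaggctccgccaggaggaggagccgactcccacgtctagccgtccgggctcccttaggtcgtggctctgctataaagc
Robo4 (chr9:37401722-37402021, plus strand): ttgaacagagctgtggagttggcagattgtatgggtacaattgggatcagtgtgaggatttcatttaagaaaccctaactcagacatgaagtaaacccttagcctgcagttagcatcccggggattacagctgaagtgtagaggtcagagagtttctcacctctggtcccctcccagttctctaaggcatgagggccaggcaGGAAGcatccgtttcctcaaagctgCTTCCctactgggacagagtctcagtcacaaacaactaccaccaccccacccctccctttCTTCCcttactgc
Calcrl (chr2:84425217-84425516, minus strand): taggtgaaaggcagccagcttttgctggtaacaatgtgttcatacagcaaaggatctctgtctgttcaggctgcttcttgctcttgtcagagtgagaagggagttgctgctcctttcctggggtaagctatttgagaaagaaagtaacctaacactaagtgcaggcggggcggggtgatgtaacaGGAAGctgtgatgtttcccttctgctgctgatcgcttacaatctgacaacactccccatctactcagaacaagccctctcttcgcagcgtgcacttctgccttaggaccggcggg
The core occurs 2 times in the Car4 window, 3 times in that of Robo4 and 1 time in that of Calcrl. The other matched members called lower had it 0 times (Cldn5, Erg and Klf2), 1 time (Clec14a, Klf4 and Rgcc) or 4 times (Egfl7). The start site of the Egfl7 window lies 1069 bases from the annotated start of the gene. With a single member called higher, the counts cannot show whether the number of cores differs between members of opposite direction. The core was found in 12 of the 15 member windows and in 74.1% of 14538 RefSeq windows of the same length. The letters CACCC or GGGTG, a core read by KLF factors, were in 11 of 15 and in 63.0% of all windows, and AACAAT or ATTGTT, a core read by SOX factors, in 2 of 15 and in 6.65%. None of the 3 motifs contains another. Such short matches describe the sequence and are not evidence of binding.

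Depth was 15316293 to 17114869 reads per library. Library SPOP_CKI 3 stood apart: it had 13167 genes with a read against 18531 to 20806 in the other 9, and the first principal component, which separated it from the rest, held 57.86% of the variance. SPOP_CKI 1, SPOP_CKI 3 and Cre_control 5 had 4190 to 7511 reads of Xist and 0 reads of 4 Y-linked genes, which goes against the labelled sex, while the other 7 libraries had 0 to 5 Xist reads. Counts of members are therefore given with and without these libraries. The overexpressed gene was checked first: Spop stood at 36028, 25308, 40631, 28689.9 and 28830.4 scaled reads in SPOP_CKI 1 to 5 and 3698, 3726, 3526, 3078 and 3098 in Cre_control 1 to 5, and the groups did not overlap (log2 fold change 3.20, SE 0.17, adjusted p = 6.15e-06, limma, and exact two-sided permutation p = 0.0079, the smallest that 5 libraries a group allow).

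Of the 33 endothelial genes, 16 were lower in SPOP_CKI hearts, 1 was higher and 16 showed no call (limma at an adjusted p under 0.05). The share of all tested genes called lower was 12.3%, and 10.0% were called higher. In 15 members every SPOP_CKI library lay below every control, against 12.3% of all tested genes, and in 1 every SPOP_CKI library lay above, against 9.01%. Converted from the log2 scale of the test, the called decreases ran from 8.67-fold for Car4 to 1.4-fold for Pecam1. Of the 33 log2 fold changes, 27 were negative. The median was −0.62 on the log2 scale, against −0.11 for all tested genes. Claudin-5, VE-cadherin, SOX17, SOX18, KLF2, ERG, carbonic anhydrase 4, TCF15 and RGCC were among the products whose genes fell, whereas the genes of von Willebrand factor, endomucin, CD93, S1PR1 and MEOX2 had log2 fold changes between 0.04 and 0.33 and did not pass.

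**Figure D1:**
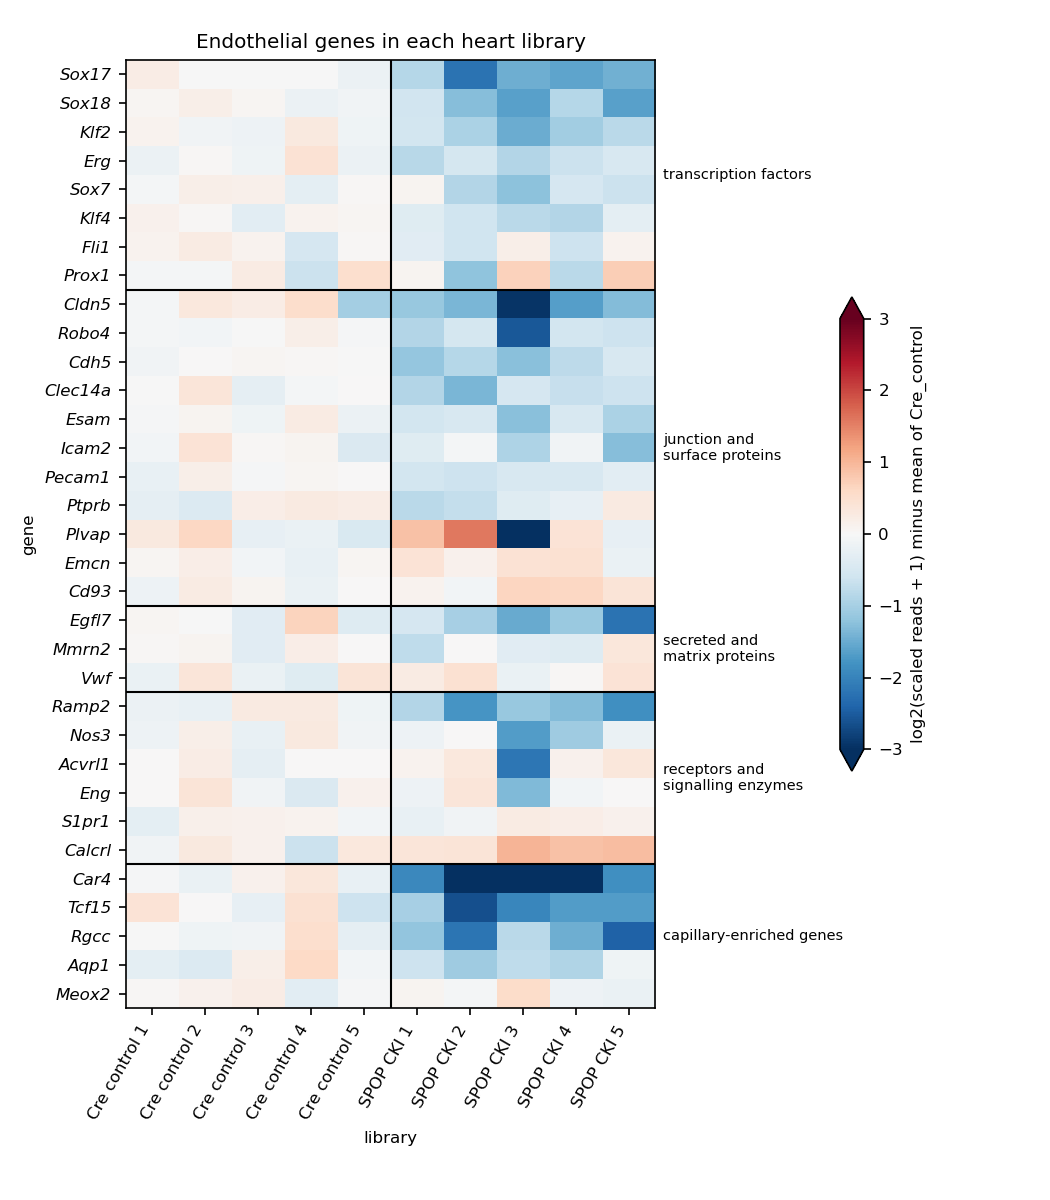
Level of each of the 33 genes (rows, grouped by role) in each of the 10 libraries (columns), as log2(scaled reads + 1) minus the mean of the 5 Cre_control libraries; blue is lower and red higher, and the colour scale ends at −3 and 3. Most SPOP_CKI cells are blue for the transcription factors, for Cldn5, Cdh5, Egfl7 and Ramp2 and for Car4, Tcf15 and Rgcc, and library SPOP_CKI 3 has the lowest value of its group in 13 genes.

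The median of the members was lower in each SPOP_CKI library than in any control. The median of the 33 members, relative to the control mean, was −0.54, −0.61, −0.92, −0.62 and −0.31 on the log2 scale in SPOP_CKI 1 to 5, and −0.04, 0.13, −0.01, 0.09 and −0.04 in Cre_control 1 to 5. The same median over all tested genes was −0.24 in SPOP_CKI 3 and between −0.0339 and −0.00385 in the other 4 SPOP_CKI libraries. Of 4 equal bins of all tested genes by transcript GC content, from low to high, bins 3 and 4 held 10 and 14 members. Gene medians in SPOP_CKI 1 to 5 were −0.15, −0.07, −0.53, −0.14 and −0.14 in bin 3. In bin 4 they were −0.34, −0.26, −1.65, −0.43 and −0.41. The member median lay between those of the bins in SPOP_CKI 3 and 5 and below both in SPOP_CKI 1, 2 and 4. Between 17 and 24 members of each SPOP_CKI library lay below the lowest control. SPOP_CKI 3 had the lowest member median and SPOP_CKI 5 the highest of the group. Without SPOP_CKI 3 the same 16 members were lower and 1 was higher, beside 17.4% of all genes lower and 1930 of 14126 higher. Without the 3 libraries with Xist reads 16 were lower and 1 was higher, with Sox7 called in place of Pecam1. In that fit 17.1% of all genes were lower and 1892 of 13648 higher.

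Of the 5 capillary-enriched genes, 3 were lower and 0 higher, beside 12.3% and 10.0% of all tested genes. With the authors' scaling Car4 and Tcf15 fell more than any other of the 33. Car4 (chromosome 11, 84957786 to 84966044, plus strand) encodes a carbonic anhydrase anchored to the luminal face of capillary endothelium, where it interconverts carbon dioxide and bicarbonate. It stood at 497, 85.1, 195, 114 and 530.2 scaled reads in SPOP_CKI 1 to 5 and 1849, 1664, 2087, 2411 and 1624 in Cre_control 1 to 5. All SPOP_CKI libraries were below all controls, and within SPOP_CKI the values of libraries 1 and 5 were well above those of 2, 3 and 4. The mean was 284 ± 213 in SPOP_CKI and 1927 ± 327 in Cre_control, so that the SPOP_CKI mean was 14.75% of the control mean. The difference on the log2 scale was larger, at 8.67-fold (log2 fold change −3.12, SE 0.47, adjusted p = 0.00173). In the authors' deposited table the log2 fold change of Car4 is −2.76.

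Tcf15 (chromosome 2, 152143561 to 152149097, plus strand) encodes a basic helix-loop-helix factor that pairs with MEOX2 in heart capillaries. It stood at 388, 124, 199.7, 244 and 243 scaled reads in SPOP_CKI 1 to 5 and 1037, 783, 655, 1072 and 507 in Cre_control 1 to 5. The highest SPOP_CKI library, SPOP_CKI 1, was below the lowest control, control 5 (log2 fold change −1.79, SE 0.30, adjusted p = 0.00263). Its partner gene Meox2, a homeobox factor, did not follow. Meox2 stood at 437, 396, 601, 368 and 354 scaled reads in SPOP_CKI 1 to 5 and 417, 448, 475, 327 and 399.8 in Cre_control 1 to 5. The groups overlapped (log2 fold change 0.04, SE 0.18, adjusted p = 0.873, 95% interval −0.35 to 0.44).

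Rgcc (chromosome 14, 79288756 to 79301645, minus strand), a cell cycle regulator used as a capillary marker, stood at 633, 316, 829, 523 and 270.4 scaled reads in SPOP_CKI 1 to 5 and 1441, 1331, 1355, 2062 and 1198 in Cre_control 1 to 5. All SPOP_CKI libraries were below all controls, among which control 4 was the highest (log2 fold change −1.62, SE 0.30, adjusted p = 0.00402). Aqp1 encodes a water channel of capillaries that red blood cells also carry. It stood at 6625, 4905, 6011, 5463 and 9285 scaled reads in SPOP_CKI 1 to 5 and 8306, 7724, 11629.7, 15432 and 9653 in Cre_control 1 to 5. Control 1 and control 2 were below SPOP_CKI 5, so the groups overlapped, and Aqp1 did not pass (log2 fold change −0.70, SE 0.23, adjusted p = 0.0512). It passed when SPOP_CKI 5 was left out (adjusted p = 0.021). After each library was centred on transcript GC content, Tcf15, at −0.45, and Rgcc, at −1.14, did not pass (adjusted p = 0.621 and 0.103), while Car4 did, at −2.86.

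**Figure D2:**
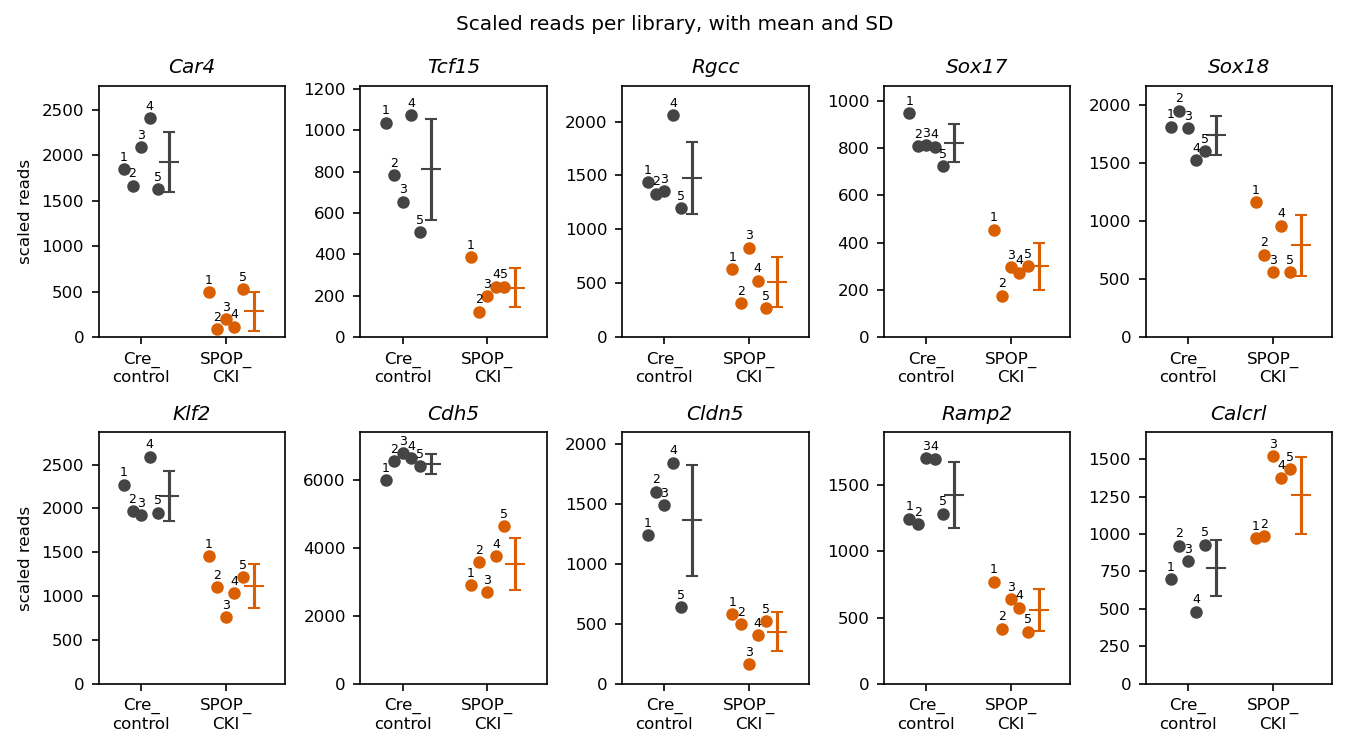
Scaled reads (linear axis from 0) of 10 of the genes in each library, with the replicate number beside each point and the mean and SD of the 5 libraries of each group beside the points. For Car4, Tcf15, Rgcc, Sox17, Sox18, Klf2, Cdh5, Cldn5 and Ramp2 all 5 SPOP_CKI libraries lie below all 5 controls, and for Calcrl they lie above.

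Among transcription factors, 5 of 8 were lower and 0 were higher, beside 12.3% and 10.0% of all tested genes. All 8 log2 fold changes were negative, while the median of all tested genes was itself below 0, at −0.11. Of the SOX factors, which act in vessel formation and arterial and lymphatic specification, Sox17 (chromosome 1, 4490931 to 4497354, minus strand) stood at 454, 176, 296, 274 and 299.9 scaled reads in SPOP_CKI 1 to 5 and 948, 808, 814, 806 and 725 in Cre_control 1 to 5. The highest SPOP_CKI library was below the lowest control (log2 fold change −1.51, SE 0.22, adjusted p = 0.0014). Sox18 (chromosome 2, 181669836 to 181671640, minus strand) stood at 1163, 710.4, 561, 958 and 561 scaled reads in SPOP_CKI 1 to 5 and 1811, 1948, 1796, 1524 and 1599 in Cre_control 1 to 5. The groups again did not overlap, and SPOP_CKI 3 and 5 were the lowest (log2 fold change −1.19, SE 0.21, adjusted p = 0.00352). Sox7 stood at 658, 339.5, 266, 439 and 401 scaled reads in SPOP_CKI 1 to 5 and 599.5, 704, 695, 511 and 637 in Cre_control 1 to 5. SPOP_CKI 1 lay among the controls and the other 4 below them, and Sox7 did not pass (log2 fold change −0.64, SE 0.22, adjusted p = 0.0603), although it did without SPOP_CKI 1 (adjusted p = 0.0131).

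The flow-responsive factor gene Klf2 (chromosome 8, 72319033 to 72321656, plus strand), whose product restrains inflammatory and thrombotic genes in endothelium, stood at 1452, 1102, 758, 1037 and 1215 scaled reads in SPOP_CKI 1 to 5 and 2272, 1969.7, 1927, 2592 and 1954 in Cre_control 1 to 5. All SPOP_CKI libraries were below all controls (log2 fold change −0.97, SE 0.18, adjusted p = 0.00446). Its relative Klf4, which macrophages also express, was lower as well (924 ± 168 in SPOP_CKI and 1386 ± 162 in Cre_control, log2 fold change −0.59, SE 0.16, adjusted p = 0.022). For Klf4 the groups touched, since control 3, at 1102, was below SPOP_CKI 5, at 1119. The ETS factor gene Erg (chromosome 16, 95359169 to 95586593, minus strand), needed for endothelial identity and junction stability, was at 448 ± 55.6 in SPOP_CKI and 719 ± 137 in Cre_control (log2 fold change −0.67, SE 0.16, adjusted p = 0.0136), with no overlap. Its ETS relative Fli1 stood at 538, 453, 769.8, 445 and 732 scaled reads in SPOP_CKI 1 to 5 and 739.6, 805, 739, 484 and 699 in Cre_control 1 to 5. SPOP_CKI 3 and 5 lay among the controls and control 4 among the SPOP_CKI libraries, and Fli1 did not pass (log2 fold change −0.26, SE 0.21, adjusted p = 0.383). Prox1, the lymphatic master regulator that cardiomyocytes also express, ranged from 534 to 2070.0 in SPOP_CKI and from 789 to 1750.2 in controls (log2 fold change −0.09, SE 0.38, adjusted p = 0.872).

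The Klf4 call was lost without SPOP_CKI 4 or without control 1, 2 or 4 (adjusted p between 0.054 and 0.0613). After GC centring the transcription factor that kept its call was Sox17, at −1.16, while Klf2, at 0.04, Sox18, at −0.23, Klf4, at −0.08, and Erg, at −0.45, did not pass.

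Of 11 junction and surface genes, 6 were lower and 0 higher, beside 12.3% and 10.0% of all tested genes. Cldn5 (chromosome 16, 18776847 to 18778262, plus strand) encodes claudin-5, the main tight junction protein of endothelium. It stood at 584, 496, 166, 405 and 523 scaled reads in SPOP_CKI 1 to 5 and 1244, 1605, 1491, 1847 and 638 in Cre_control 1 to 5. Control 5, the lowest control, was still above SPOP_CKI 1, the highest of its group, and SPOP_CKI 3 was the lowest library of all (log2 fold change −1.68, SE 0.37, adjusted p = 0.00944). Cdh5 (chromosome 8, 104101625 to 104144511, plus strand) encodes VE-cadherin, the adhesion protein of endothelial adherens junctions. It stood at 2911, 3590.0, 2704, 3766 and 4649 scaled reads in SPOP_CKI 1 to 5 and 6011, 6579, 6801, 6652 and 6418 in Cre_control 1 to 5. The controls were tightly grouped, and every SPOP_CKI library was below them (log2 fold change −0.91, SE 0.17, adjusted p = 0.00408).

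Robo4 (chromosome 9, 37401897 to 37415115, plus strand) encodes an endothelial receptor that stabilises vessels. It stood at 659, 842, 207, 826 and 788 scaled reads in SPOP_CKI 1 to 5 and 1175, 1155, 1212, 1374 and 1183 in Cre_control 1 to 5. All SPOP_CKI libraries were below all controls, and SPOP_CKI 3 was far below the rest of its group (log2 fold change −1.03, SE 0.34, adjusted p = 0.0495). Without that library the log2 fold change was −0.65 with an adjusted p of 0.00377, and the call was lost without any of the 5 controls or without SPOP_CKI 1 or 4 (adjusted p between 0.053 and 0.108).

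Clec14a (chromosome 12, 58264720 to 58269290, minus strand), a C-type lectin of endothelium, stood at 393, 282, 511, 445 and 472 scaled reads in SPOP_CKI 1 to 5 and 714, 930.1, 599, 692 and 728 in Cre_control 1 to 5. The highest SPOP_CKI library was below the lowest control (log2 fold change −0.81, SE 0.19, adjusted p = 0.0118). Esam (chromosome 9, 37528078 to 37538319, plus strand), an adhesion molecule of endothelial tight junctions, stood at 1221, 1279.5, 756, 1276 and 931 scaled reads in SPOP_CKI 1 to 5 and 1744, 1902, 1646, 2119 and 1594 in Cre_control 1 to 5. The groups did not overlap, and SPOP_CKI 3 and 5 were the lowest (log2 fold change −0.74, SE 0.18, adjusted p = 0.0133). Pecam1, the platelet and endothelial adhesion molecule CD31, had the smallest decrease (4558 ± 367 in SPOP_CKI and 6372 ± 610.5 in Cre_control, log2 fold change −0.48, SE 0.14, adjusted p = 0.0274). Its call was lost without SPOP_CKI 4 or without control 2, 3, 4 or 5 (adjusted p between 0.0538 and 0.0754). With quantile normalization it was also lost, at −0.33 (adjusted p = 0.11).

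The other 5 junction and surface genes did not pass. Icam2, an adhesion molecule that leukocytes bind, stood at 427, 525, 288, 506 and 224 scaled reads in SPOP_CKI 1 to 5 and 513, 723, 560.1, 579.6 and 403 in Cre_control 1 to 5. SPOP_CKI 3 and 5 lay below all controls and the other 3 among them (log2 fold change −0.54, SE 0.26, adjusted p = 0.145). Cd93, a receptor of endothelial adhesion, stood at 2662, 2334, 3848, 3799 and 3225 scaled reads in SPOP_CKI 1 to 5 and 2239, 2919, 2643, 2172 and 2502 in Cre_control 1 to 5. SPOP_CKI 3, 4 and 5 lay above all controls and SPOP_CKI 1 and 2 among them (log2 fold change 0.33, SE 0.18, adjusted p = 0.194). Emcn, the sialomucin of capillaries and veins, ranged from 876 to 1374 in SPOP_CKI and from 864 to 1153 in controls (0.24 on the log2 scale). Ptprb, the VE-cadherin-associated phosphatase, ranged from 2882 to 6029 and from 3811 to 6036 (−0.37). Plvap, which forms the diaphragms of fenestrae and caveolae, had the widest SPOP_CKI range as a ratio of highest to lowest, 39.4 to 969 against 236 to 497 in controls, with SPOP_CKI 3 at the lowest value and SPOP_CKI 2 at the highest. Its log2 fold change was −0.08 with all libraries and 0.65 without SPOP_CKI 3 (adjusted p = 0.154). After GC centring Clec14a, at −0.94 (adjusted p = 0.00875), and Robo4, at −0.50 (adjusted p = 0.0456), still passed, the change of Robo4 being less than that before centring, while Cldn5, at −0.76, Cdh5, at −0.59, Esam, at −0.30, and Pecam1, at −0.30, did not pass.

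**Figure D3:**
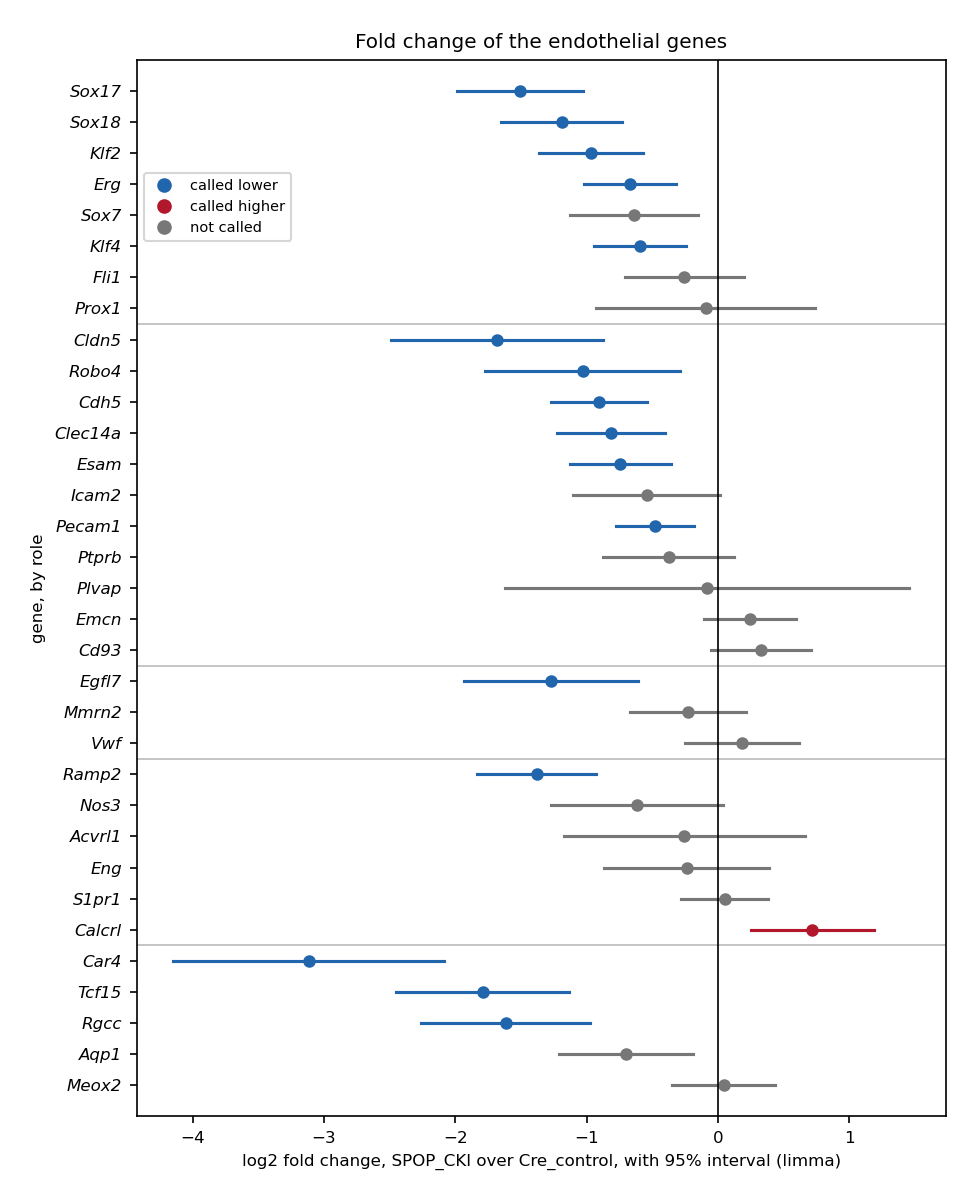
Log2 fold change of SPOP_CKI over Cre_control for each of the 33 genes, on the log2(scaled reads + 1) scale, with its 95% interval from limma; genes are grouped by role, blue marks those called lower, red higher and grey not called. The points of Car4, Tcf15, Cldn5, Rgcc, Sox17 and Ramp2 lie farthest to the left, Calcrl alone is called to the right of 0, and Plvap has the widest interval, −1.62 to 1.45.

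Of 6 receptors and signalling enzymes, 1 was lower and 1 was higher, beside 12.3% and 10.0% of all tested genes. These are values of 2 genes and no result about the role. Both genes belong to the same receptor. Ramp2 (chromosome 11, 101246028 to 101259546, plus strand) encodes the accessory protein that makes the calcitonin receptor-like receptor a receptor for adrenomedullin. It stood at 772, 416, 640.2, 575 and 394 scaled reads in SPOP_CKI 1 to 5 and 1249, 1207, 1704, 1702 and 1285 in Cre_control 1 to 5. All SPOP_CKI libraries were below all controls (log2 fold change −1.38, SE 0.21, adjusted p = 0.00164). Calcrl (chromosome 2, 84330626 to 84425411, minus strand) encodes the receptor itself. It stood at 972, 985, 1523, 1377 and 1434 scaled reads in SPOP_CKI 1 to 5 and 699, 924, 821, 481 and 929 in Cre_control 1 to 5. Every SPOP_CKI library was above every control, with SPOP_CKI 1 and 2 close to controls 2 and 5 (log2 fold change 0.72, SE 0.22, adjusted p = 0.0338).

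Per length, the ratio of Calcrl to Ramp2 was 0.852, 1.60, 1.61, 1.62 and 2.46 in SPOP_CKI 1 to 5 and 0.379, 0.517, 0.326, 0.191 and 0.489 in Cre_control 1 to 5. The lowest SPOP_CKI ratio was above the highest control ratio. This follows from the separation of the groups in both genes and is no further result. The Calcrl call was lost without SPOP_CKI 4 or 5 or without control 1, 3 or 4 (adjusted p between 0.0557 and 0.0796). It was lost after GC centring too, at 0.37 (adjusted p = 0.177), as was that of Ramp2, at −0.74 (adjusted p = 0.213).

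The other 4 did not pass. Nos3, the endothelial nitric oxide synthase, stood at 649, 734, 228, 348 and 628 scaled reads in SPOP_CKI 1 to 5 and 650.4, 818, 626, 890.0 and 678 in Cre_control 1 to 5. SPOP_CKI 3 and 4 lay below all controls and the other 3 among them (log2 fold change −0.62, SE 0.30, adjusted p = 0.159). Eng encodes endoglin, a co-receptor for BMP9 and transforming growth factor beta. It stood at 4907, 7052, 2179, 5176 and 5506 scaled reads in SPOP_CKI 1 to 5 and 5552, 7135, 5062, 4081 and 6004 in Cre_control 1 to 5. SPOP_CKI 3 was below all other libraries, and the other 4 lay among the controls (log2 fold change −0.24, SE 0.29, adjusted p = 0.568). Acvrl1, the type I receptor that works with endoglin, ranged from 214 to 1215 in SPOP_CKI, the lowest value being that of SPOP_CKI 3, and from 794 to 1123 in controls (−0.26 on the log2 scale). S1pr1, the sphingosine 1-phosphate receptor of vessel barrier function, ranged from 2196 to 3035 and from 2096 to 2877 (0.05). Without SPOP_CKI 3 the log2 fold changes of Eng and Acvrl1 were 0.03 and 0.22.

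Of the 3 secreted and matrix proteins, 1 was lower, beside 12.3% of all tested genes, which is no result about the role. Egfl7 (chromosome 2, 26580014 to 26593120, plus strand) encodes a factor that endothelial cells deposit in the vessel wall. It stood at 1130.2, 797, 562, 734 and 345 scaled reads in SPOP_CKI 1 to 5 and 1658, 1595, 1267, 2542 and 1227 in Cre_control 1 to 5. The highest SPOP_CKI library, SPOP_CKI 1, was below the lowest control (log2 fold change −1.27, SE 0.30, adjusted p = 0.0135), and after GC centring the log2 fold change was −0.61 and did not pass (adjusted p = 0.257). Mmrn2, an endothelial matrix glycoprotein that binds CD93 and CLEC14A, stood at 725, 1230.0, 962, 930.5 and 1547 scaled reads in SPOP_CKI 1 to 5 and 1264, 1300.3, 969, 1404 and 1227 in Cre_control 1 to 5. The groups overlapped, SPOP_CKI 5 being the highest library of all and SPOP_CKI 1 the lowest (log2 fold change −0.23, SE 0.20, adjusted p = 0.426). Vwf, the clotting protein stored in endothelium and platelets, stood at 2550.5, 2931, 1869.8, 2191 and 2841 scaled reads in SPOP_CKI 1 to 5 and 1865, 2769, 1864, 1683 and 2824 in Cre_control 1 to 5. All SPOP_CKI values lay within or just above the range of the controls (log2 fold change 0.19, SE 0.20, adjusted p = 0.519). After GC centring Vwf was at 0.81 and did not pass either (adjusted p = 0.0725). The ratio of Vwf to Cdh5, per length, was 0.187 ± 0.0334 in SPOP_CKI and 0.0889 ± 0.0224 in Cre_control. This follows from the values of both genes given above and is no further result.

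Exons of some members overlap those of other genes in GENCODE M21, and the sources used here do not state the strand setting of the counting. Egfl7 shares 64 exon bases with Agpat2 on the other strand, and Agpat2 was itself lower, at 319 scaled reads in SPOP_CKI against 851 in Cre_control (log2 fold change −1.42, adjusted p = 0.00128). Egfl7 also shares exons with Gm20532 and hosts the microRNA gene Mir126a. Ramp2 shares 1103 bases with Vps25 on the same strand, and the table lists Vps25 at 6.37 and 7.35. Nos3, Eng, Acvrl1, Prox1 and Sox17 overlap genes on the other strand. How reads in shared bases were assigned was not tested.

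Levels were compared between genes per kilobase of the gene length in the table. In Cre_control the order was led by Aqp1, at 4016 ± 1186 scaled reads per kb. Well below it came Rgcc (1609 ± 368), Cdh5 (1545 ± 71.9) and Eng (1375 ± 279), whose ranges of mean ± SD overlapped. Klf2 (1160 ± 156), Sox18 (1071 ± 106), Pecam1 (1023 ± 98.0), Car4 (980.0 ± 166) and Cldn5 (964 ± 326) came next and were not separated by their spread either. At the low end, Clec14a (160 ± 26.6), Calcrl (158 ± 38.4), Prox1 (152 ± 42.5) and Vwf (137 ± 34.2) differed by less than their SD. In SPOP_CKI the level of Car4 was 145 ± 109 scaled reads per kb, near the lowest members, while Aqp1 remained first at 2458 ± 649. Eng (1226 ± 436), S1pr1 (881 ± 122), Cdh5 (838 ± 183) and Pecam1 (732 ± 58.9) followed it.

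**Figure D4:**
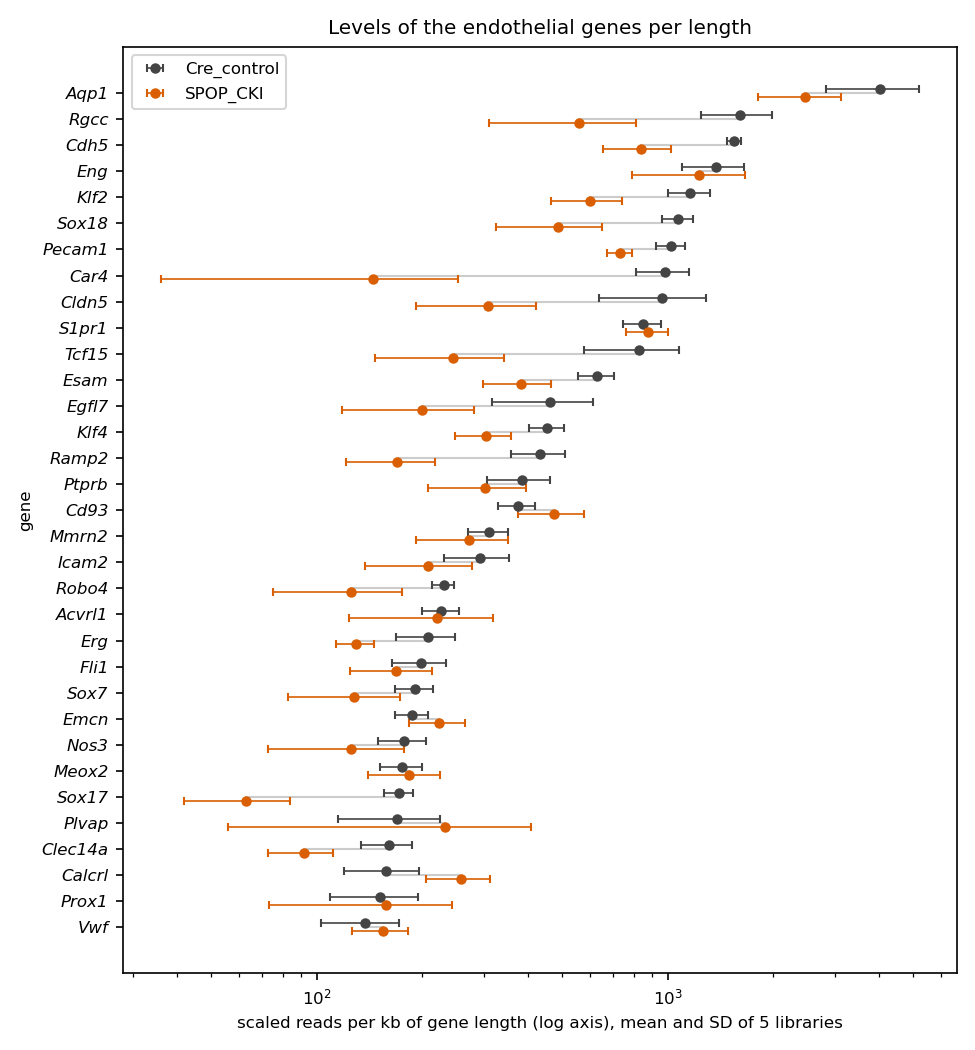
Mean level of each gene in scaled reads per kb of gene length (log axis), with bars of SD over the 5 libraries of each group, in the order of the Cre_control mean. The gap between the groups is widest for Car4, which goes from 980.0 to 145, and Eng, S1pr1, Acvrl1, Meox2 and Vwf show overlapping bars.

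GC content moved with the result. Over all tested genes, sorted into 4 equal bins by the GC content of the longest GENCODE M21 transcript, the median log2 fold change was 0.32, 0.07, −0.23 and −0.67 from the lowest to the highest bin, and 3.69%, 8.22%, 15.4% and 21.9% of genes were called lower. The members had a median GC content of 53.67% and those called lower 54.43%, against 49.63% for all tested genes. Of the members, 4, 5, 10 and 14 lay in the 4 bins, and 1, 0, 7 and 8 of these were called lower. In the highest bin the median gene was 1.65 below the control mean in SPOP_CKI 3 on the log2 scale, while in the other SPOP_CKI libraries it was 0.26 to 0.43 below. Calcrl, with 37.8% GC, was the member with the lowest GC content, and Tcf15, with 65.8%, that with the highest.

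With each library centred on a curve of GC content, 4 members stayed lower (Car4, Clec14a, Robo4 and Sox17) and 0 were higher. Of all genes, 5.96% were lower and 1279 of 14201 higher in that fit. With this centring and SPOP_CKI 3 left out, an alternative chosen after the data were seen, 13 members were lower and 2 higher. Of all genes, 13.5% were lower and 1804 of 14115 higher, so the 2 higher calls are values of the named genes only. The 13 were Car4, Cdh5, Cldn5, Clec14a, Egfl7, Erg, Esam, Ramp2, Rgcc, Robo4, Sox17, Sox18 and Tcf15, and those higher were Plvap (log2 fold change 1.10, adjusted p = 0.0155) and Acvrl1 (0.51, adjusted p = 0.0157). Car4 (−2.98), Rgcc (−1.61), Sox17 (−1.38), Ramp2 (−1.15), Tcf15 (−1.05) and Clec14a (−1.03) had the largest decreases there. Klf2 (−0.34) and Klf4 (−0.31) did not pass. Leaving out SPOP_CKI 3 alone, with no centring, left the 16 calls in place.

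**Figure D5:**
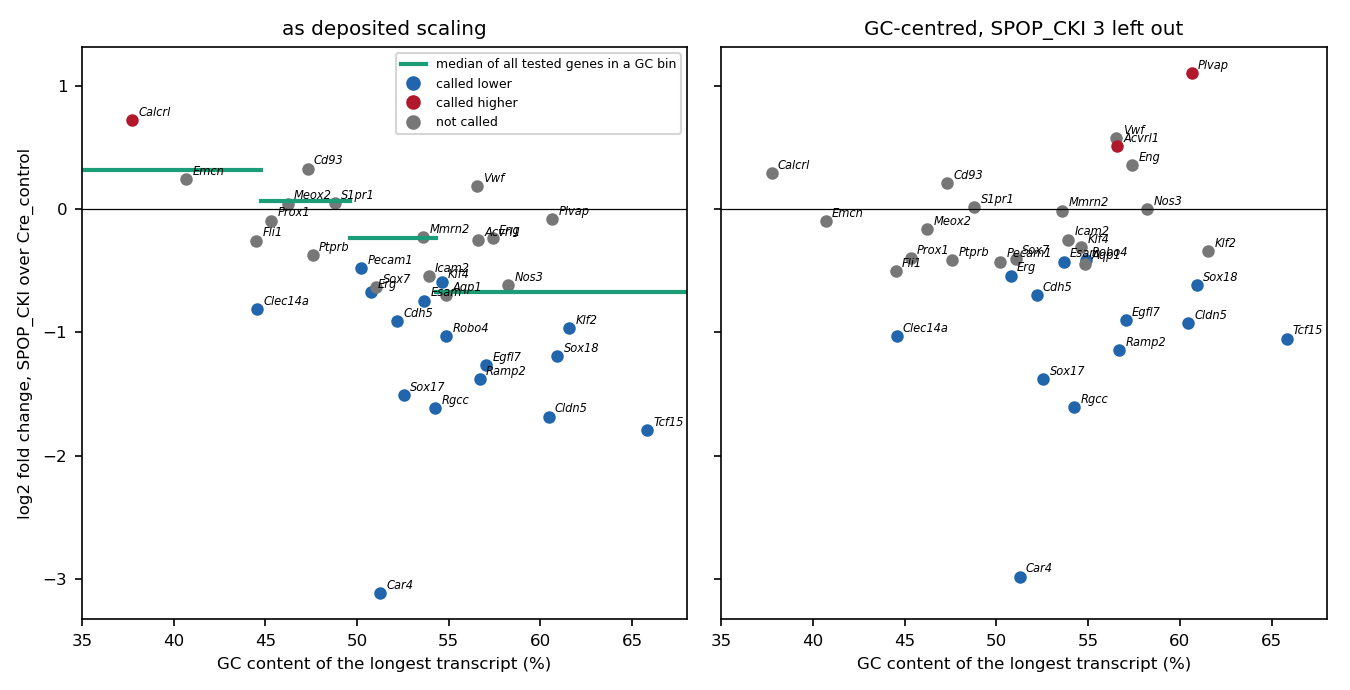
Log2 fold change of each gene against the GC content of its longest transcript, with the authors' scaling and all libraries (left) and after GC centring without SPOP_CKI 3 (right); green bars are the median of all tested genes in each of 4 GC bins, and colours mark the calls as in the plot of fold changes. On the left the medians go from 0.32 to −0.67 with rising GC content, and on the right 13 genes are called lower and 2 higher.

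Genes outside the 33 that belong to the same vessels were read from related lists, beside 12.3% of all tested genes called lower and 10.0% called higher. With 6 to 14 genes tested in each list after the first, 1 or 2 calls are values of the named genes and no result about the list. Of 24 other endothelial genes tested, 7 were lower and 0 higher, and their median log2 fold change was −0.22. Gpihbp1 had the largest decrease: its product carries lipoprotein lipase to the capillary lumen, and it was at 648 ± 394 in SPOP_CKI and 3041 ± 1144 in Cre_control (log2 fold change −2.42, SE 0.43, adjusted p = 0.00369). Fabp4, a fatty acid carrier of capillary endothelium and adipocytes, was at 5423 ± 3642 in SPOP_CKI and 23284 ± 6106 in Cre_control (log2 fold change −2.33, SE 0.41, adjusted p = 0.00338), with no overlap. Ushbp1, an endothelium-enriched gene, fell by 1.55 (adjusted p = 0.000717). These 3 kept their calls after GC centring (−1.99, −2.55 and −1.20). Without SPOP_CKI 5, 2 of the list were higher.

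Arterial genes had 1 of 10 higher and 0 lower, the connexin gene Gja5 (258 ± 47.2 in SPOP_CKI and 144 ± 18.3 in Cre_control, log2 fold change 0.83, SE 0.18, adjusted p = 0.00981). The number higher was 2 without SPOP_CKI 3, and 1 was lower without SPOP_CKI 1, 2, 3 or 5. Of 8 venous and endocardial genes tested, 1 was higher, the leukocyte adhesion gene Vcam1 (log2 fold change 1.68, SE 0.34, adjusted p = 0.00651), and 2 were lower, Cytl1 (−1.27) and the ephrin receptor gene Ephb4 (−0.85). After GC centring neither passed, Cytl1 at −0.98 (adjusted p = 0.0933) and Ephb4 at −0.10 (adjusted p = 0.844). Vcam1 stood at 879, 3065, 948, 2030.0 and 949 scaled reads in SPOP_CKI 1 to 5 and 477, 456, 314, 384 and 542 in Cre_control 1 to 5, highest in SPOP_CKI 2 and 4, with no overlap. Lymphatic genes had 1 of 6 higher, Pdpn (1.46, adjusted p = 0.0384), a call lost without SPOP_CKI 2 or 4 or any of the 5 controls (adjusted p between 0.055 and 0.0989). Of 12 angiogenic and activated endothelial genes 1 was lower, the basement membrane gene Nid2 (−0.64, adjusted p = 0.0466). That call was lost without SPOP_CKI 1, 3, 4 or 5 or control 1, 2, 4 or 5 (adjusted p between 0.0508 and 0.11) and after GC centring, at −0.13 (adjusted p = 0.711), and 1 gene was higher without SPOP_CKI 3.

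Of 14 endothelial transcription factors outside the members, Gata2, a zinc finger factor of endothelium and blood, was at 239 ± 96.2 in SPOP_CKI and 609 ± 65.6 in Cre_control (log2 fold change −1.42, SE 0.23, adjusted p = 0.00232), and Tfdp2, a partner of E2F factors, fell by 1.39. The ETS repressor gene Etv6 rose (log2 fold change 0.83), a call lost without SPOP_CKI 4 or control 1 or 4 (adjusted p between 0.05 and 0.059). After GC centring Gata2, at −0.67, did not pass. In the pathway around Klf2 and Klf4, 2 of 12 genes were lower, a share near that of all tested genes: the kinase gene Map2k5 (−0.77, adjusted p = 0.0154) and the transcription factor gene Mef2d (−1.03, adjusted p = 0.0161). After GC centring 0 of them were lower, and 1 gene was higher without SPOP_CKI 1, 2, 3 or 5.

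Among 12 ligands and partners of the member receptors, 3 were higher and 2 lower. The sphingosine kinase gene Sphk2 (−1.14) and the sphingosine 1-phosphate exporter gene Spns2 (−0.77) fell, and S1pr2, another receptor for that lipid, was higher, at 336 ± 119.6 in SPOP_CKI and 161 ± 36.2 in Cre_control (log2 fold change 1.02, SE 0.26, adjusted p = 0.0177). After GC centring Sphk2, at −0.37 (adjusted p = 0.195), and Spns2, at −0.04 (adjusted p = 0.937), did not pass. S1pr3 and Bmpr2 were also called higher (0.61 and 0.72, adjusted p = 0.0411 and 0.049). The S1pr3 call held in 4 of 10 fits with a library left out and was lost without SPOP_CKI 2 or 5 or control 1, 3, 4 or 5 (adjusted p between 0.0649 and 0.0978). The Bmpr2 call held in 3 of 10 and was lost without SPOP_CKI 1, 3, 4 or 5 or control 1, 2 or 4 (adjusted p between 0.0504 and 0.114), and after GC centring, at 0.43 (adjusted p = 0.19). The number higher was 1 without SPOP_CKI 5 or without control 1 or 4, and the number lower was 1 without control 2 or 4. The Sphk2 call was lost without either of the last 2 (adjusted p = 0.0613 and 0.0619). Adm, the adrenomedullin gene, was at 193 ± 115 in SPOP_CKI and 183 ± 32.6 in Cre_control and did not pass, and the other receptor partners Ramp1 and Ramp3 did not pass either (adjusted p = 0.199 and 0.112).

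Markers of other cell types in the heart were measured beside the endothelial genes, and their counts too stand beside 12.3% of all tested genes lower and 10.0% higher. Of 8 pericyte markers, the cells that wrap capillaries, 2 were lower, Kcnj8 (log2 fold change −1.05, SE 0.17, adjusted p = 0.0024) and Vtn (log2 fold change −1.06, SE 0.21, adjusted p = 0.00623). After GC centring neither passed, Kcnj8 at −0.64 (adjusted p = 0.0743) and Vtn at −0.50 (adjusted p = 0.337), and 1 other marker, Cspg4, was higher, at 1.31 (adjusted p = 0.00097). The summed level of the list was 21845 to 36669 scaled reads in SPOP_CKI and 28223 to 36836 in Cre_control, and 1 marker was higher without SPOP_CKI 3. Of 10 cardiomyocyte markers 3 were lower and 1 higher, with sums of 379760 to 685489 against 623924 to 811394, the number lower being 5 without SPOP_CKI 5 and the 1 higher lost without SPOP_CKI 1 or 4 or control 3 or 4. Myh6 (−1.59), Tnni3 (−1.24) and Myl3 (−1.02) were those lower, and after GC centring 0 were. The Myl3 call was lost without control 1 or 4 (adjusted p = 0.0502 and 0.0538).

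Of 9 fibroblast markers 1 was higher, the matrix proteoglycan gene Lum (1.21), with sums of 58581 to 146056 against 59092 to 75523, and 4 were higher without SPOP_CKI 3 and 2 without SPOP_CKI 1. Of 6 smooth muscle markers 1 was higher, Acta2, at 10292, 6893, 8273, 15342 and 5459 scaled reads in SPOP_CKI 1 to 5 and 1422, 2362, 1296, 1432 and 1043 in Cre_control 1 to 5, with no overlap (log2 fold change 2.58, SE 0.29, adjusted p = 0.000412). The other smooth muscle markers did not pass. The median log2 fold change of that list was −0.18, and 0.19 without SPOP_CKI 3, so this is a value of Acta2 and no result about the list. Of 8 macrophage markers 2 were higher and 1 lower. Cd163, a marker of resident macrophages, fell (−1.13, adjusted p = 0.00488). Itgam and Adgre1 were called higher (2.19 and 1.56), in 4 and 2 of 10 fits with a library left out, and the sums were 4976 to 25011 against 5869 to 10081. Neither was called without SPOP_CKI 2 or 4 or without control 1, 3, 4 or 5.

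Of 5 erythroid genes tested 4 were lower and 0 higher, with sums of 5313 to 8894 scaled reads in SPOP_CKI and 13980 to 28122 in Cre_control. Hbb-bs (−1.79), Hbb-bt (−1.66) and Hba-a1 (−1.35) are near-identical to other globin genes, so the assignment of their reads is uncertain. After GC centring 3 of the 4 passed, and Hba-a1, at −0.68 (adjusted p = 0.186), did not. Platelet markers had 0 of 3 called, with sums of 126 to 684 against 231 to 274, and Itga2b had the smallest p (adjusted p = 0.235). Mesothelial markers had 0 of 6 called, with sums of 69.2 to 445 against 136 to 337 (Krt19, adjusted p = 0.0586), and 1 was lower without SPOP_CKI 1, 2 or 3. Schwann cell and neuron markers had 0 of 4 (Kcna1, adjusted p = 0.177), with sums of 137 to 357 against 107 to 307. Lymphocyte and adipocyte markers summed to at most 90.04 and 79.6 scaled reads in any library, and 0 of them had a level high enough to be tested. In none of the 11 marker lists was a matched gene at 0 in all 10 libraries. The part of these cell types, of GC content and of the 3 libraries with Xist reads in the change of the endothelial genes was not tested beyond the values given.

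In the authors' deposited table, 17 of the 33 members are listed as lower and 1 as higher at an adjusted p under 0.05. The member that the table adds is Aqp1, with a log2 fold change of −0.71 and an adjusted p of 0.0331 in the authors' deposited table.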

How the data were processed

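Poly(A) RNA of mouse heart tissue was sequenced in 10 libraries, and the genotype and title of each sample gave its group. Per the submitters' processing notes, the counting tool was featureCounts 1.5.0-p3, the test DESeq2 1.20.0 and the genome build mm10. No aligner, annotation release or strand setting could be read: each was not given in the sources used here, and none is assumed. The authors deposited a signal per library, which is the read number of a gene over a size factor, and also group means of this signal, log2 fold changes, p-values and adjusted p-values. When divided by what 1 read is worth, 100% of the values were whole at a tolerance of 0.001.

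The members and all lists were chosen with earlier results of these data known. Genes with at least 10 in at least 5 libraries (14212) were tested with limma 3.58.1 (R 4.3.3, trend and robust) on log2(value + 1), two-sided, with Benjamini-Hochberg adjustment over all of them at 0.05. A fold is the difference on that scale converted from log2. It understates the change of low genes and can differ from the ratio of the group means. On recovered reads edgeR 4.0.16 called 1488 genes lower and 1689 higher, and DESeq2 1.42.0 was also run. GENCODE M21 gave a transcript GC content for 99.9% of tested genes. Values in every library are given for the 14 called members with the largest change and for 2 uncalled members of each role with the smallest p. From each related list, up to 3 called genes with the largest change are named, or the gene with the smallest p. The labels call the libraries repeats and do not say whether each is a separate animal, litter or batch, and the p-values reflect the spread among these libraries, which may be technical. Alternatives were other pseudocounts, filters, scalings, array weights, GC centring, a replicate block and each library left out. Ccl21a, which 2 identifiers share, and Gp1bb were not matched.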

Additional observations from a re-analysis of the deposited data

Results flagged for a closer look

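Each group of 5 libraries was examined for a highest or lowest library whose gap to its nearest neighbour took an unusually large share of the group's range, over 68 groups of values, and chance alone marks about 1 in 20 such groups. Robo4 was at 207 scaled reads in SPOP_CKI 3, far below the 659 to 842 of the other 4 SPOP_CKI libraries, and at 1374 in control 4, above the 1155 to 1212 of the other controls. Acvrl1 was at 214 in SPOP_CKI 3, against 1029.9 to 1215 in the other 4. Klf4 was at 1102 in control 3, below the other controls, and Rgcc was at 2062 in control 4, above the others. Both values of SPOP_CKI 3 belong to the library with the fewest detected genes.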

How the results depend on the processing

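The number of members called lower (16) was 14 to 19 under the other pseudocounts, filters, scalings and tests, and Spop stayed higher under every alternative run. The number of all genes called lower moved too. It was 1530 of 24888 with no filter, where 14 members were lower, and 2891 of 14212 with array weights, where 19 were. The number of members lower was 4 after GC centring, when 0 were higher, and 13 after GC centring without SPOP_CKI 3, when 2 were higher. With each library left out in turn it was 13 to 17, and the number higher was 0 to 1, with 13 of the 16 called lower in all 10 of these fits. Of all genes, 1034 of 13990 were lower without control 1 and 2451 of 14126 without SPOP_CKI 3, the ends of that range. Without the libraries with Xist reads 16 were lower. The median of all tested genes moved from −0.11 to 0.03 with quantile normalization, and that of the members from −0.62 to −0.56. With a replicate block 15 members were lower and 1 higher, Pecam1 losing its call. Deviations of same-numbered libraries correlated at 0.026 to 0.16, and 2 of 5 numbers matched best with themselves, so the numbers were not taken as pairs. No edgeR, DESeq2 or limma alternative reversed a called member except that Klf2 was at 0.042 after GC centring. Members with no call changed sign under some alternatives, Nos3 among them, which was at −0.62 with all libraries and the authors' scaling. After GC centring the values were −0.054 for Emcn, 0.13 for Nos3, 0.86 for Plvap, 0.20 for Mmrn2, 0.44 for Eng and 0.37 for Acvrl1. After GC centring without SPOP_CKI 3 they were −0.10 for Emcn, −0.16 for Meox2, 0.00043 for Nos3, 1.10 for Plvap, 0.35 for Eng and 0.51 for Acvrl1. Without the libraries with Xist reads they were −0.15 for Meox2, 0.46 for Plvap, 0.13 for Eng and 0.27 for Acvrl1. With array weights they were −0.12 for Meox2, 0.44 for Plvap and 0.10 for Acvrl1. With edgeR Plvap was at 0.47 and Prox1 at 0.069, with DESeq2 at 0.45 and 0.055, and with quantile normalization Plvap was at 0.063. With each library left out in turn, Meox2 ranged from −0.082 to 0.11, Plvap from −0.50 to 0.65, S1pr1 from −0.023 to 0.12, Eng from −0.39 to 0.034, Acvrl1 from −0.40 to 0.22 and Prox1 from −0.31 to 0.18, and Plvap, Eng and Acvrl1 were highest without SPOP_CKI 3. The cause of these changes was not tested. Over all members and alternatives, 668 values kept their direction and side of the threshold, 45 lost a call, 11 gained it and 35 changed sign. The lowest member value in any library was 39.4 scaled reads, for Plvap in SPOP_CKI 3, which also had the fewest genes with a read; what depth limits was not tested further.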
